A study of Arabidopsis thaliana with 21 samples.

Results

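The 84 probe sets described here had a lower group mean in Arabidopsis thaliana plants given 1 mM phosphate than in unsupplemented plants. With 30 µM phosphate or arsenate they were held only to the limits given below, and arsenate differences ran from -0.88 to 0.977 (log2). They were chosen from 22746 probe sets of the Affymetrix ATH1 array (0.369%) by the means of 3 arrays per group on the log2 scale, on which 1 unit is a 2-fold difference. Each had a 1 mM phosphate mean at least 1 unit below the control mean, a 30 µM phosphate mean no more than 0.5 below it, and an arsenate mean less than 1 unit away from it. The values that chose the members are therefore described and not tested.

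All 4 groups were wild-type plants of the Col-0 accession. Before treatment they spent 7 days on medium with 1 mM phosphate and 2 days without phosphate, so the control plants were phosphate-starved too. They were then moved to liquid medium for 8 h, with no supplement (control), 30 µM arsenate, 30 µM phosphate or 1 mM phosphate, and RNA of 3 independent biological samples per group was hybridised to 1 array each. For the samples titled 1 mM phosphate, source name and supplement entry also give 1 mM but the description gives 30 µM, and the title was followed. The labels name plants and no organ. RNA came from whole samples, so fewer cells of a type and less RNA per cell cannot be told apart.

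In plants short of phosphate, MYB-type factors of the PHR1 family switch on genes for phosphate uptake, phosphate release from organic compounds and replacement of membrane phospholipids. SPX proteins, which bind inositol pyrophosphates, hold these factors back when phosphate is plentiful, so resupply lowers the transcripts of many starvation genes. Arsenate is a chemical analog of phosphate that enters root cells through phosphate transporters, and it is toxic to metabolism. The files used here do not pair ATH1 probe sets with genes, so which of the 84 belong to these pathways is not reported, and at most 2 identifiers a direction are given.

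Array medians lay between 5.02 and 5.18 (log2), and arrays within a group had a Pearson's r of 0.9813 to 0.9952 with each other across probe sets. Precision is limited by having 3 arrays in each group. Control means of the 84 lay between 4.63 and 12.25. None of the 84 lay below the lower quartile of the control means (3.68), and 1 lay below that of the 1 mM phosphate means (3.74). Replicate spread was wider than for the array as a whole: the median SD of the members over 3 arrays was 0.262 in control, 0.279 with arsenate, 0.256 with 30 µM phosphate and 0.264 with 1 mM phosphate. Over all probe sets these medians were 0.137, 0.155, 0.142 and 0.136.

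With 1 mM phosphate the members were lower than control by 1.01 to 2.18 log2 units, or 2.01-fold to 4.53-fold. The median difference was -1.17 (2.26-fold), against 0.027 over all probe sets. Most differences were close to the limit that the rule sets: 47 of the 84 lay between -1.2 and -1, 25 between -1.5 and -1.2, 11 between -2 and -1.5, and 1 beyond -2. All 3 arrays with 1 mM phosphate lay below all 3 control arrays for 82 members, where 13.9% of all probe sets did so. They lay below all 9 other arrays for 65 members, against 5.24% of all probe sets. These counts follow from the rule, and nothing about the members is read from them.

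**Figure D1:**
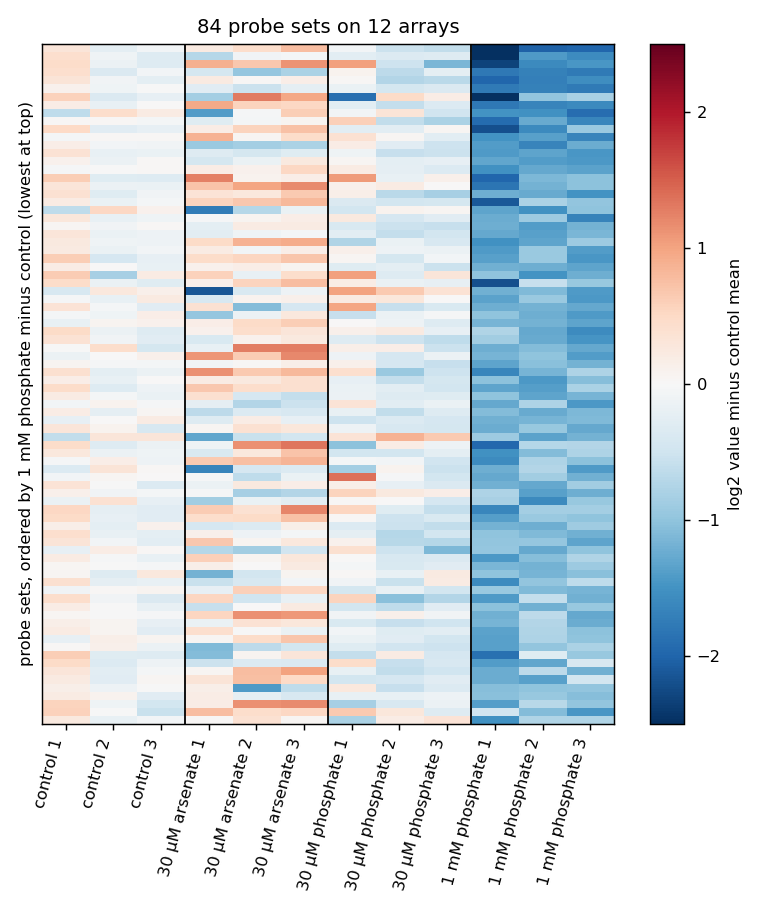
Log2 value of each of the 84 probe sets (rows, lowest 1 mM phosphate difference at the top) on each of the 12 arrays (columns), minus the mean of its 3 control arrays. The 1 mM phosphate columns are blue or pale blue throughout, the 30 µM phosphate columns are mostly pale, and the arsenate columns hold both red and blue rows.

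Probe set 259272_at had the largest difference. Its log2 values were 10.67, 10.11 and 10.3 in control, 10.3, 9.83 and 9.74 with 30 µM phosphate, 10.59, 10.79 and 11.14 with arsenate, and 7.84, 8.33 and 8.37 with 1 mM phosphate. The 1 mM phosphate arrays lay more than a log2 unit below every other array. The control arrays overlapped those of 30 µM phosphate and of arsenate, and the arsenate arrays lay above those of 30 µM phosphate. The group means were 10.36 ± 0.285 (SD, n = 3) in control and 8.18 ± 0.295 with 1 mM phosphate, a difference of -2.18 ± 0.209 (SE). The 30 µM phosphate difference from control was -0.40 and the arsenate difference 0.48.

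Probe set 249754_at was next, with 9.96, 9.44 and 9.23 in control, 9.28, 9.21 and 9.23 with 30 µM phosphate, 8.83, 9.46 and 9.49 with arsenate, and 6.76, 8.12 and 7.98 with 1 mM phosphate. No 1 mM phosphate array overlapped the other groups, but replicate 1 lay well below the other two arrays of its group. The difference of the means was -1.92 ± 0.319 (SE, n = 3 per group).

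Among the other members, replicate spread varied widely. The tightest separation was found for the member ranked 6 by size of difference, with 7.9, 7.68 and 7.77 in control, 7.61, 7.34 and 7.42 with 30 µM phosphate, 7.5, 7.24 and 7.55 with arsenate, and 6.01, 6.09 and 6.02 with 1 mM phosphate. Its difference was -1.74 ± 0.11 (SE), and its 1 mM phosphate arrays were nearly identical. The member ranked 7 was the opposite case, with 8.63, 7.69 and 7.85 in control, 6.17, 8.53 and 8.24 with 30 µM phosphate, 7.21, 9.36 and 9.02 with arsenate, and 4.7, 7.07 and 7.24 with 1 mM phosphate. Replicate 1 was the lowest array in each of the 3 supplemented groups and the highest in control, so its difference of -1.72 carried an SE of 0.78. The member with the highest control level, ranked 11, had 12.74, 11.96 and 12.05 in control and 10.05, 10.66 and 11.32 with 1 mM phosphate, without overlap.

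A model over all probe sets (limma, with Benjamini-Hochberg adjustment and a call at an adjusted p of 0.05) called 68 of the 84 lower with 1 mM phosphate, beside 5.53% of all probe sets. The rule used this contrast, so the count is only a description. The other 16 members met the rule on their means without passing the model. Their standard errors ran from 0.309 to 0.78, and those of the 68 called members from 0.11 to 0.445. In 14 of the 16 the 1 mM phosphate arrays lay below all control arrays (13.9% of all probe sets). The limit on the means favours this, so nothing is read from it.

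The label under which these probe sets were grouped says that 30 µM phosphate left them unlowered. By their means, 71 of the 84 lay below control with 30 µM phosphate and 13 above, where 50.2% of all probe sets lay below. The rule used this difference, and the same control means entered the 1 mM phosphate limit, so these values are only a description. The median was -0.253 (-0.003 over all probe sets), with the middle of the distribution from -0.407 to -0.113 (quartiles) and a range of -0.497 to 0.677. Without control replicate 1 the median was -0.152. In number, 24 members lay between -0.5 and -0.4, 27 between -0.4 and -0.2, 20 between -0.2 and 0, 6 between 0 and 0.2, and 7 above 0.2. Expressed as a share of the member's own 1 mM phosphate difference on the log2 scale, the 30 µM phosphate difference had a median of 19.8%, and it exceeded 25% in 33 members. limma called 0 of the 84 in this contrast, beside 1.52% of all probe sets lower and 2.35% higher. At an unadjusted p of 0.05 in limma, 17 were lower and 1 was higher. The share of all probe sets at that limit was not computed, so nothing is read from these counts. Without 30 µM phosphate replicate 1 limma called 3 members lower, beside 840 calls in either direction over all probe sets. All 3 arrays of 30 µM phosphate lay below all control arrays for 17 members (9.58% of all probe sets) and above them for 3 (10.4%).

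The boundary at -0.5 does not fall in a gap. Among 366 probe sets that met the other conditions, 32 had a 30 µM phosphate difference between -0.7 and -0.6, 31 between -0.6 and -0.5, 24 between -0.5 and -0.4, and 11 between -0.4 and -0.3. The 3 members nearest to the boundary had -0.497, -0.493 and -0.493, and the 3 nearest outside it -0.503, -0.503 and -0.507. For the 1 mM phosphate limit, the nearest members had -1.01, -1.01 and -1.013, and the nearest outside -0.997, -0.997 and -0.993. For arsenate the nearest members had 0.977, 0.963 and 0.92, and the nearest outside 1.007, -1.063 and -1.11. Altogether 486 probe sets were at least 1 unit lower with 1 mM phosphate, of which 345 had a 30 µM phosphate mean 0.5 or more below control. A further 27 were left out because their arsenate mean was at least 1 unit above control, and 30 because it was at least 1 unit below.

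**Figure D2:**
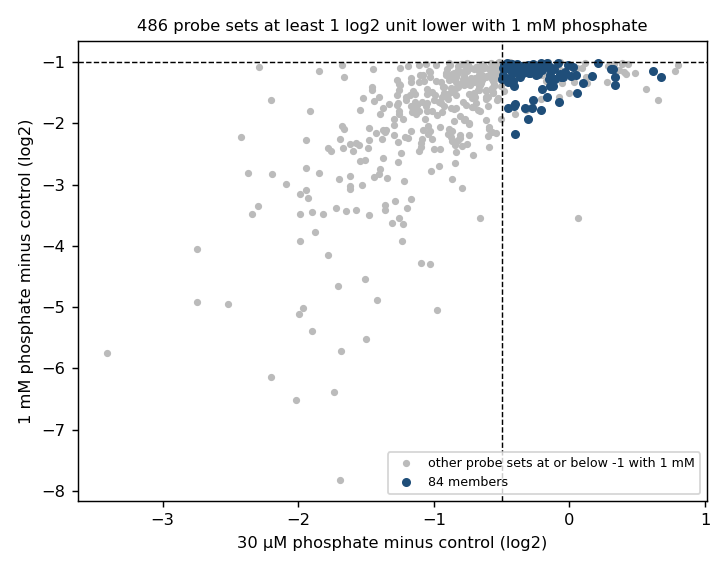
Difference from control (log2 group means) with 30 µM phosphate (horizontal) and 1 mM phosphate (vertical) for the 486 probe sets at least 1 unit lower with 1 mM phosphate. The 84 members (dark) lie to the right of the dashed line at -0.5, and the grey points continue on its left without a gap, while grey points on its right were left out for their arsenate difference.

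The 13 members with a 30 µM phosphate mean above control had a median 1 mM phosphate difference of -1.23. For the member farthest from control in this direction, the values were 9.45, 10.12 and 9.98 in control, 10.86, 10.51 and 10.21 with 30 µM phosphate, 7.72, 9.46 and 9.73 with arsenate, and 8.64, 8.75 and 8.44 with 1 mM phosphate. Its arrays with 30 µM phosphate lay above every control array and its arrays with 1 mM phosphate below, so the phosphate doses stood on opposite sides of control. The differences were 0.68 ± 0.413 (SE) for 30 µM and -1.24 ± 0.413 (SE) for 1 mM phosphate, and limma called neither. The next such member had 6.58, 7.5 and 7.5 in control, 7.53, 8.06 and 7.84 with 30 µM phosphate, 5.9, 6.64 and 6.74 with arsenate, and 6.28, 5.86 and 6.02 with 1 mM phosphate. In both members the control replicate 1 array was the lowest of its group, and the arsenate replicate 1 array as well.

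Between the phosphate doses, the members were lower with 1 mM than with 30 µM by 0.553 to 1.917 log2 units, with a median of -0.942. At least 0.5 of this is fixed by the rule. The 1 mM phosphate arrays lay below those of 30 µM phosphate for 74 of the 84 (16.6% of all probe sets). limma called 59 lower, beside 5.49% of all probe sets. It called 0 higher (4.38% of all probe sets), which the rule fixes in advance. Both means chose the members, so these counts are only a description. The count of members called was 33 without 1 mM phosphate replicate 1 and 39 without 30 µM phosphate replicate 1. Over all probe sets these fits made 680 and 863 calls in either direction, against 2246 in the main fit. Of the 68 members called lower than control with 1 mM phosphate, 54 were also called lower than with 30 µM phosphate. That the lowest group mean was that of 1 mM phosphate in all of the 84 is fixed by the rule (23.6% of all probe sets had it there).

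**Figure D3:**
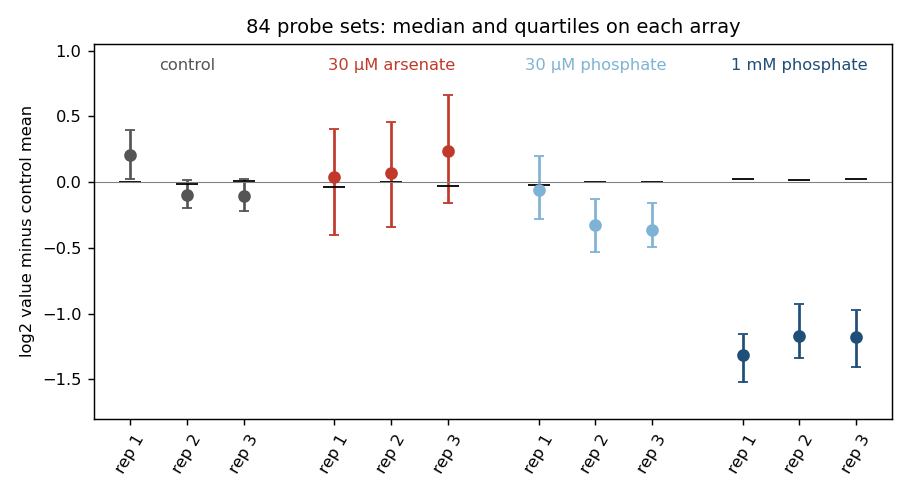
Median (point) and quartiles (bars) over the 84 probe sets of the log2 value minus each probe set's control mean, for each of the 12 arrays, with the median over all 22746 probe sets as a black dash. Medians were -1.315 to -1.172 with 1 mM phosphate, -0.362 to -0.058 with 30 µM phosphate and 0.042 to 0.238 with arsenate, and the quartiles were widest apart with arsenate.

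Array by array, the median of the members relative to their control means was 0.207, -0.102 and -0.107 on the 3 control arrays, which shows the size of array-wide movement of the 84 within a group. It was -0.058, -0.323 and -0.362 with 30 µM phosphate and -1.315, -1.172 and -1.18 with 1 mM phosphate. Replicate 1 was thus the highest array in both the control and the 30 µM phosphate group. Set against the control array of the same replicate number, the 30 µM phosphate medians were -0.28, -0.275 and -0.26, and 38 members were below in all 3 pairs (21% of all probe sets). The rule used these arrays, and its 1 mM phosphate limit favours members with high control values. These figures are therefore only a description. The 1 mM phosphate medians were -1.515, -1.055 and -1.065 against the same-numbered controls. On single 1 mM phosphate arrays, 74, 55 and 59 of the 84 lay at least 1 unit below the control mean.

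With arsenate the members lay on both sides of control. Arsenate differences from control ran from -0.88 to 0.977 with a median of 0.108 (-0.017 over all probe sets). Above control lay 48 members and below it 36, where 53.4% of all probe sets lay below. The median was 0.216 without control replicate 1, 0.047 without control replicate 3, 0.071 without arsenate replicate 3 and 0.056 after a further quantile normalization. Against the control array of the same replicate number it was -0.175, 0.165 and 0.4, with 56, 29 and 23 of the 84 below control, so its sign differed between replicate numbers. limma called 7 of the 84 higher and 5 lower with arsenate, beside 10.8% and 13.2% of all probe sets. The arsenate arrays lay above all control arrays for 14 members (15.4% of all probe sets) and below them for 10 (19.5%). The rule itself removed larger differences, so nothing is read from these counts. Of the calls, 7 in all were left without control replicate 3, and 21 were made without arsenate replicate 1. With the replicate number as a block, 8 were called higher and 9 lower.

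At the upper end, 20 members had an arsenate mean more than 0.5 above control, with a median of 0.75. Probe set 266711_at had 6.91, 7.08 and 7.2 in control, 8.17, 7.69 and 8.26 with arsenate, 6.94, 6.65 and 6.91 with 30 µM phosphate, and 5.9, 6.06 and 5.67 with 1 mM phosphate. The arsenate arrays lay above and the 1 mM phosphate arrays below all others, while control and 30 µM phosphate overlapped. Its arsenate difference was 0.98 ± 0.16 (SE, n = 3 per group) and its 1 mM phosphate difference -1.19 ± 0.16. Probe set 260568_at likewise had its highest arrays with arsenate and its lowest with 1 mM phosphate, with 7.82, 7.36 and 7.35 in control, 8.23, 8.49 and 8.7 with arsenate, 7.61, 7.72 and 7.51 with 30 µM phosphate, and 5.69, 6.33 and 6.48 with 1 mM phosphate. Its arsenate difference was 0.96 ± 0.203 (SE) and its 1 mM phosphate difference -1.34. A further member of this kind, ranked 8, had 8.19, 7.82 and 8.01 in control, 8.96, 8.56 and 8.53 with arsenate, 7.74, 7.42 and 7.66 with 30 µM phosphate, and 6.22, 6.35 and 6.42 with 1 mM phosphate, with no overlap between any pair of groups.

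**Figure D4:**
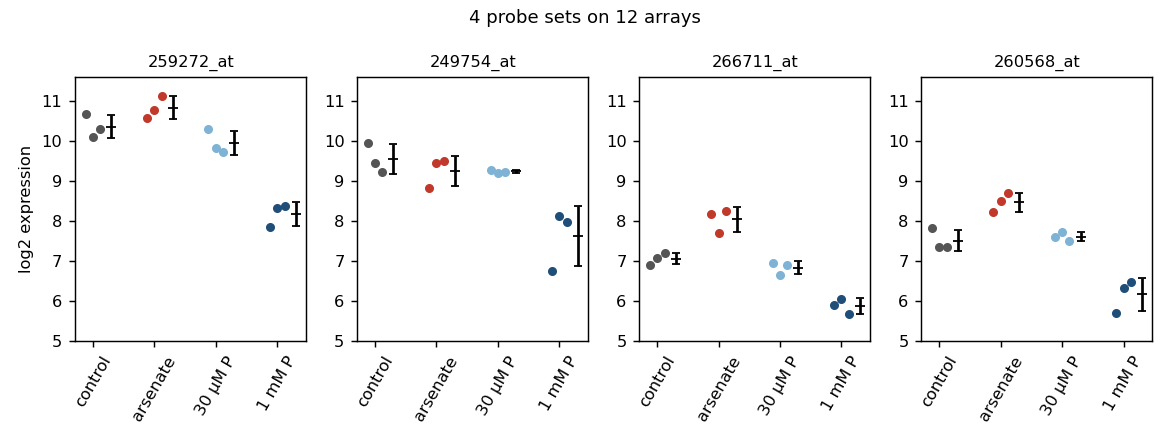
Log2 expression of the 4 probe sets given by identifier on each of the 12 arrays (coloured points), with the group mean and SD (n = 3) to the right of the points. In each panel the 1 mM phosphate arrays are the lowest, and in 266711_at and 260568_at the arsenate arrays are the highest.

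At the lower end, 12 members had an arsenate mean at least 0.5 below control, with a median of -0.74. The member ranked 13 had 8.09, 7.84 and 7.82 in control, 6.99, 7.06 and 7.13 with arsenate, 8.11, 7.63 and 7.4 with 30 µM phosphate, and 6.52, 6.26 and 6.67 with 1 mM phosphate. Arsenate and 1 mM phosphate both lay below control without overlap, and 1 mM phosphate was the lower of the pair. Of the 12 members at this end, 3 had all 1 mM phosphate arrays below the 9 others, and of the 20 at the upper end 16 (5.24% of all probe sets). The arsenate arrays are among the 9, so the split by arsenate mean favours this difference. No test of it was made, and nothing is read from it.

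**Figure D5:**
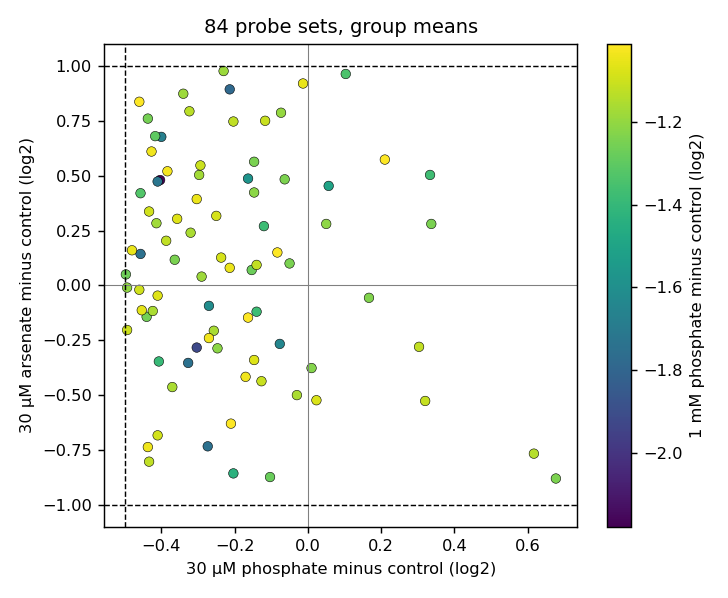
Difference from control (log2 group means) with 30 µM phosphate (horizontal) and 30 µM arsenate (vertical) for the 84 probe sets, coloured by the 1 mM phosphate difference, with the limits of the rule dashed. Most points lie left of 0 on the horizontal axis, and they spread on both sides of 0 on the vertical axis, where the range is -0.88 to 0.977.

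The order of the 4 group means is given as a description, because the rule used all 4 means. In 42 members the order from lowest to highest was 1 mM phosphate, 30 µM phosphate, control, arsenate. In 15 it was 1 mM phosphate, arsenate, 30 µM phosphate, control, and in 14 it was 1 mM phosphate, 30 µM phosphate, arsenate, control. In 7 it was 1 mM phosphate, arsenate, control, 30 µM phosphate. In the other 6, control was next in rank after 1 mM phosphate, though by the rule at least 1 log2 unit above it. The highest mean was that of arsenate in 47 members, of control in 29 and of 30 µM phosphate in 8. The rule fixes 1 mM phosphate as lowest and limits the other means. Shares of these orders over all probe sets are not given here, so nothing about the members is read from the counts. Whether neighbouring means in these orders differed beyond the replicate spread was not tested.

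Arsenate and phosphate can also be set side by side at the matched dose of 30 µM. The arsenate minus 30 µM phosphate difference had a median of 0.352 (-0.003 over all probe sets) and a range of -1.557 to 1.297. It was above 0 in 61 of the 84 and below 0 in 23, where 50.2% of all probe sets lay below 0. limma called 28 members higher and 4 lower with arsenate than with 30 µM phosphate, beside 13.4% and 17.8% of all probe sets. Both means also entered the rule, with unlike limits, so these differences and calls are given only as a description. Against 1 mM phosphate the arsenate means were higher by 0.303 to 2.68 (median 1.355), a direction that the rule fixes.

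The 84 were chosen on all 12 arrays, so no array is left on which to test them. Other lists were chosen by the same rule on 2 arrays per group and read on the arrays of the replicate number left out. Chosen without replicate 1, 57 probe sets met the rule, 40 of them among the 84. On the replicate 1 arrays 54 of the 57 were below control with 1 mM phosphate (median -1.19), the 30 µM phosphate median was -0.06 and the arsenate median -0.32. Chosen without replicate 2, 131 met the rule, 67 of them among the 84, and on the replicate 2 arrays 129 were below control with 1 mM phosphate (median -0.85), with medians of -0.25 for 30 µM phosphate and 0.31 for arsenate. Chosen without replicate 3, 116 met it, 68 of them among the 84, and on the replicate 3 arrays 113 were below control (median -0.87), with medians of -0.30 and 0.45. Each of these readings sets 1 left-out array against 1 other, and probe sets on the same arrays are not replicates of a treatment. The 3 medians belong to different lists, so their sizes are not compared. The lists only partly overlap the 84, so this describes the lists and is no test of the 84. The complete rule held on the left-out arrays for 22 of 57, 33 of 131 and 27 of 116, and for 1.46%, 0.33% and 0.365% of all probe sets on the same arrays. With single arrays left out, 49 of the 84 still met the rule without control replicate 1 and 60 without 1 mM phosphate replicate 1, and 25 met it whichever of the 12 arrays was left out. The medians over all probe sets for 1 mM phosphate on the left-out replicate numbers were 0.03, 0.03 and 0.01. Of all probe sets, 45.8%, 44.7% and 47.8% lay below control there.

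The identifiers of the members carried a further description. An ending of _s_at marks probes that match several transcripts, often of related genes, and _x_at marks probes open to cross-hybridisation. Of the 84, 8 ended in _s_at (9.52%, against 4.11% of all probe sets) and 1 in _x_at (1.19%, against 0.554%), and signals of these 9 may add up more than 1 transcript. The other 75 ended in _at alone.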

How the data were processed

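The values analysed were deposited log2 expression values of 12 ATH1 arrays. The authors' summary method was RMA, per the submitters' processing notes (version not given in the sources used here). It corrects background, applies quantile normalization and summarises the probes of a probe set, so shifts common to most transcripts are removed and differences near the floor are compressed. No column was left unused. The 64 control rows of 22810 were left out. Groups and replicate numbers came from the titles. Contrasts were fitted with limma (version 3.58.1, R 4.3.3): lmFit over the 4 groups, eBayes, two-sided, Benjamini-Hochberg adjustment over 22746 probe sets, with calls made below an adjusted p of 0.05. The fit was tested on simulated data. SEs are the moderated ones.

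Members and lists were chosen with earlier results of these data known. The rule for named probe sets gave at most 2 identifiers a direction: the 2 lowest with 1 mM phosphate and the 2 highest with arsenate. Members described by rank were picked after their values were seen. Without a pairing of probe sets with genes, 0 identifiers were matched, and the planned gene lists, tissue markers, promoter and protein sequences and members at 1.5 h were not analysed here. Deviations from group means of same-numbered arrays correlated at 0.128 to 0.493 among control, arsenate and 30 µM phosphate. With 1 mM phosphate the correlations were -0.196 to 0.068. The titles give only a replicate number, so whether same-numbered arrays were handled together is not known, and the main fit used no pairing. The block on the replicate number, a further quantile normalization, median centring, a filter at the 40 percentile, fits on the compared groups and leaving out arrays were the alternatives.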

Additional observations from a re-analysis of the deposited data

How the results depend on the processing

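The rule gave 72 members after a further quantile normalization and 64 after median centring, 69 and 64 of them among the 84. Stricter limits left 12 (1 mM phosphate at -1.5), 13 (30 µM phosphate above 0) and 52 (arsenate within 0.5). Leaving out 1 array at a time gave 69 to 105 members, and leaving out 1 replicate number in all groups, an alternative added after seeing the data, gave 57 to 131. Of the 84, 25 stayed in all 12 lists made without 1 array and 72 in at least 9. Leaving out control replicate 1 kept 49 of the 84, the fewest.

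Calls with 1 mM phosphate against control numbered 56 to 60 without 1 array and 65 to 79 under the other alternatives (68 in the main analysis). Over all probe sets fitted, calls numbered 1247 to 1707 without 1 array and 2238 to 2932 under the others (2311 in the main analysis). With 30 µM phosphate the 0 calls became 1 on the compared groups only, and 0 to 3 without 1 array (3 without 30 µM phosphate replicate 1), all lower. With arsenate the 12 calls became 7 without control replicate 3 and 21 without arsenate replicate 1, the lowest and highest (5469, 4274 and 5239 calls over all probe sets). Between phosphate doses the 59 calls became 33 without 1 mM phosphate replicate 1 and 39 without 30 µM phosphate replicate 1, within 33 to 48. Over all probe sets the 2246 calls became 680 and 863 in those fits. Arsenate against 30 µM phosphate gave 24 to 38 calls without 1 array (32 in the main analysis). Over all probe sets it gave 5842 to 7247 (7088 in the main analysis). The cause was not tested, and fits without an array have fewer samples. The median arsenate difference was 0.047 to 0.216 without 1 array, the latter without control replicate 1. Medians were -1.233 to -1.111 for 1 mM and -0.325 to -0.152 for 30 µM phosphate (-0.152 without control replicate 1).

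With the replicate number as a block, calls were 75 with 1 mM phosphate, 0 with 30 µM phosphate, 17 with arsenate (8 higher and 9 lower, against 7 and 5 without it), 66 between phosphate doses and 36 for arsenate against 30 µM phosphate, each total within 1.5 times that without it. Over all probe sets the block gave 2796, 1155, 5997, 3030 and 7633 calls in these contrasts. The 4 identified probe sets kept their call under the alternatives run in each contrast. The planned comparisons at 1.5 h were not run. Signal over background on each array is not analysed here.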
